A study of Homo sapiens with 6 samples.

Results

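The genes described here encode the proteins of the cytoplasmic ribosome and the factors that load it, start it and move it along messenger RNA. They were chosen by name alone: every Argonaute crosslink site whose gene symbol was RPL or RPS followed by a digit, leaving out the RPS6K kinases, or began with EIF or EEF. The rule found 317 of the 16230 sites of the deposited table (1.95%), in 87 of its 4361 gene names. Of these, 33 genes with 93 sites carried a large ribosomal subunit name, RPL7L1 among them, and 22 with 74 sites a small subunit name. Another 28 with 117 sites carried an initiation factor name and 4 with 33 sites an elongation factor name. RefSeq lists 158 protein-coding symbols that meet the rule, and 86 of them had a site under a gene name kept by the rule. The remaining gene name, EIF4A2P1, is a pseudogene of EIF4A2. Another 5 sites under 3 joined gene names, in which a ribosomal or factor gene comes second, were left out by the rule.

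Argonaute proteins carry microRNAs, short RNAs that pair with messenger RNA mainly through their bases 2 to 8, the seed, and most often in the 3' untranslated region (UTR). Ribosomal protein and elongation factor messages are among the most abundant and most heavily translated in dividing cells, and many of them begin with an oligopyrimidine tract through which mTOR signalling controls their translation. The initiation factors bring the first transfer RNA, the cap-binding complex and the ribosomal subunits together at the start codon, and the elongation factors then deliver aminoacyl transfer RNAs and move the ribosome forward.

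The cells were HK2, an immortalised human proximal tubule line labelled as wild type, and all libraries came from this line. All cultures were serum starved for 24 h. The control cultures then received no TGF-beta1, and the treated cultures received TGF-beta1 at 20 ng/mL for 24 h; TGF-beta1 is a cytokine that drives fibrotic responses in kidney epithelium. All cultures were given 100 uM 4-thiouridine for 20 h and 365 nm ultraviolet light, so that a labelled uridine in contact with Argonaute crosslinks and is read as a base change (PAR-CLIP). There were 2 control and 2 treated Argonaute libraries; 2 libraries from an IgG pull-down were not analysed here, so no value below has an IgG background beside it. The labels do not say whether the 2 libraries of a group came from separate cultures, so the p-values measure only the spread between these libraries.

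The control libraries held 1714445 and 1926255 reads and the treated libraries 5293207 and 3415699, so the treated libraries were deeper, and a low value was measured more precisely in them. Of 15 proximal tubule markers, 0 had a site, and of 9 epithelial markers 3 did (CLDN1, JUP and KRT18, with summed scaled values of 27.8 to 30.4 in the controls and 15.6 to 17.1 after treatment, a gap that lay mostly in CLDN1, at 14.6 against 3.69 on average, while JUP and KRT18 overlapped between the groups); none of the endothelial, immune, fibroblast or podocyte markers had one. An Argonaute site needs both expression and binding, so these counts do not test the cell type. Of 8 tested genes known to respond to TGF-beta1, all 8 had a positive difference and 6 passed the limma adjusted p threshold given below, FN1, INHBA, PMEPA1, SMAD7 and TGFBI among them.

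Of the 12 sites with the most crosslinked reads, 10 are shown first, because these are sequences listed as crosslinked in the Argonaute libraries under these genes. Each line gives 29 bases of the deposited window, 5' to 3' on the transcript strand. The first capital is the crosslinked T, and further capitals mark a seed match that lies adjacent to it in the authors' annotation.

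EIF4G2 3' UTR, chr11:10797441-10797469, minus strand: gaatactgtagaaaTGCACTTTgctcagt
EEF1A1 coding site 1, chr6:73519171-73519199, minus strand: tggtgttggtgaatTtgaagctggtatct
RPL28 coding or 3' UTR, chr19:55391704-55391732, plus strand: gtgcaaaacctgctTgACTGTGcccacaa
EEF1A1 coding site 2, chr6:73519192-73519220, minus strand: tgctgtcctgattgTTGCTGCtggtgttg
RPS7 coding, chr2:3575827-3575855, plus strand: agctggagatgaacTcggacctcaaggct
RPS14 coding, chr5:150447670-150447698, minus strand: acaggtcatcagccTcggacctcaggtgg
EIF4A2 coding, chr3:186787803-186787831, plus strand: gctcgcgggattgaTGTGCAAcaagtgtc
RPS28 coding, chr19:8321669-8321697, plus strand: tgggcaggaccggtTCTCAGGGacagtgc
RPS12 coding, chr6:132814991-132815019, plus strand: atggacgttaatacTgctttacaagaggt
RPL35A 3' UTR, chr3:197955826-197955854, plus strand: tggattaaaaaactTACTACCTtaaattg

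All coordinates are on hg38. Of these 10 sites, 7 lay in coding sequence, and 3 had a 7-base match, 3 a 6-base match adjacent to the crosslink, 1 a 6-base match elsewhere in the window and 3 no annotated match. The matches were annotated to the microRNAs below, printed from RefSeq (GRCh38.p14) with the seed in capitals. The EIF4G2 site was annotated to the miR-17 family, the RPS28 site to the miR-125 family and the RPL35A site to the miR-196 family. The EIF4A2 site was annotated to the miR-25/92 family, the RPL28 site to miR-128-3p and EEF1A1 site 2 to miR-103a-3p. Each site is listed under 1 seed, but seeds can share bases. The ACTGTG of the RPL28 site also lies in the complement of the miR-27 seed, and the CTACCT of the RPL35A site in that of the let-7 seed. The 6 bases matched at EEF1A1 site 2 do not tell miR-103a-3p apart from microRNAs whose seeds share them.

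hsa-miR-17-5p: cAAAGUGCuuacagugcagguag
hsa-miR-125a-5p: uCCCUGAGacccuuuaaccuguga
hsa-miR-196a-5p: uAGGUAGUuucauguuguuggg
hsa-miR-92a-3p: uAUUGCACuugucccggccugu
hsa-miR-128-3p: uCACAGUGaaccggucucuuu
hsa-miR-103a-3p: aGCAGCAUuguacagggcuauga

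Reads at member sites were few and concentrated. The 317 sites held 3225 crosslinked reads over the 4 libraries, with a median of 6 reads a site against 7 over all sites, and 235 of them held under 10. The 10 genes with most reads held 44.9% of the member reads and the 27 tested genes 71.6%. A single site, the EIF4G2 3' UTR site above, held 193 reads, 5.98% of the total and 24.7% of all member reads in 3' UTRs. Initiation factor genes held 35.6% of the member reads, large subunit genes 26.4%, small subunit genes 25.6% and elongation factor genes 12.4%. All 4 libraries had a crosslinked read at 83 of the 317 sites, against 6145 of all 16230. There were 43 of the 317 member sites without a crosslinked read in the controls, against 1874 of all 16230 sites. In the treated libraries, which were the deeper ones, 1 member site had none, against 193 of all sites.

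Member sites took 1.23% and 1.16% of all listed crosslinked reads in the controls (453 and 623 reads) and 1.46% in each treated library (1092 and 1057 reads). The share was 1.19% ± 0.05 (SD, n = 2) in the controls and 1.46% ± 0.01 (SD, n = 2) after treatment, and the groups did not overlap. Over the sites crosslinked in every library, which excludes those seen only in the deeper libraries, it was 0.97% ± 0.06 and 1.13% ± 0.03. No test was made of these sums, and the part of the depth in them was not tested.

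The most frequent location of member sites was coding sequence, and that of all sites in the table was the 3' UTR. Of the 317 member sites, 174 were coding (54.9%, against 26.2% of all sites), 61 in 3' UTRs (19.2% against 39.01%), 47 in introns (14.8% against 22.1%), 19 in sequence that is coding in some transcripts and 3' UTR in others, and 10 in 5' UTRs. Coding sequence held 50.3% and 55.5% of the member reads in the controls and 53.4% and 54.3% in the treated libraries. The same share over all sites was 17.7%, 16.5%, 19.1% and 19.3%, so every library showed more coding reads in the member genes by a margin larger than the spread between libraries. This is a description of a chosen gene set, with no test. No region lengths were used, so these shares are not per length.

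**Figure D1:**
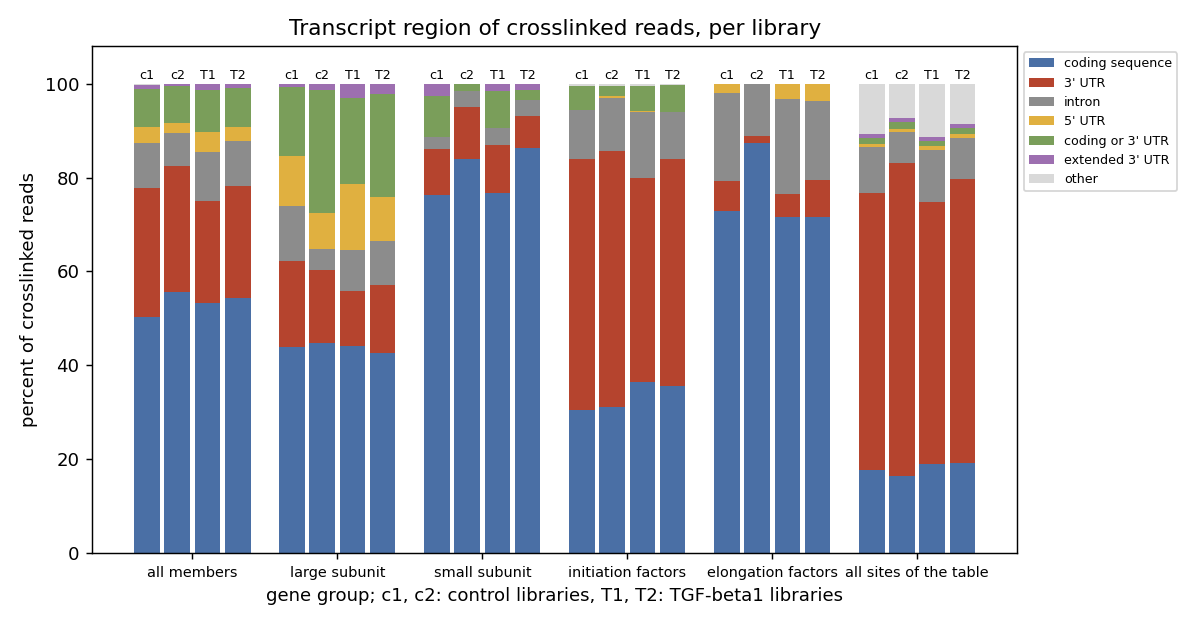
Percent of crosslinked reads (vertical axis) in each transcript region, 1 stacked bar per library (c1 and c2 control, T1 and T2 TGF-beta1), for all member genes, for the 4 role groups and for all sites of the table. Coding sequence takes 50.3% to 55.5% of member reads and 16.5% to 19.3% of all reads; the initiation factors are the group with the most 3' UTR reads.

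The groups differed among themselves. The small subunit genes had 76.3% and 83.9% of reads in coding sequence in the controls and 76.8% and 86.3% after treatment. This was the highest coding share of the groups in every library but control 2, where the elongation factors had 87.3%. The initiation factors had the highest 3' UTR share, 53.4% and 54.5% of reads in the controls and 43.5% and 48.3% after treatment, and 30.4% to 36.4% in coding sequence. Without the EIF4G2 site, their 3' UTR share was 40.5% and 41.7% in the controls and 35.5% and 38.2% after treatment. The large subunit genes had 42.6% to 44.9% of reads in coding sequence and 14.6% to 26.3% in sequence annotated as coding or 3' UTR, most of it the RPL28 site printed above. Among the elongation factors, coding reads were 71.5% to 87.3%, carried by EEF1A1, which delivers aminoacyl transfer RNA to the ribosome. EEF1D, a subunit of the factor that recharges EEF1A1 with GTP, had 0 coding sites and 11 of its 13 sites in introns.

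The share of member reads in 3' UTRs was 27.4% and 26.8% in the controls and 21.6% and 23.9% in the treated libraries, so the groups did not overlap. Without the EIF4G2 site it was 21.3% and 20.6% against 18.1% and 19.2%, and again did not overlap. Over all sites the values were 59.0% and 66.5% against 55.8% and 60.4%, which did overlap. The mean was lower after treatment in both cases, 27.1% against 22.8% for the members and 62.7% against 58.1% over all sites. A lower 3' UTR share was thus not particular to the members.

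Seed matches next to the crosslink were annotated at a smaller share of member sites than of all sites, with no test of the difference. A match of any kind stood in the window of 177 of 317 member sites (55.8%, against 63.1% of all sites). A match adjacent to the crosslink was annotated at 45 (14.2% against 22.95%), and a 7-base match adjacent to it at 13 (4.10% against 11.3%). Counted by reads in place of sites, 30.98% of member reads stood at an adjacent match against 44.8% of all reads, and 13.4% at a 7-base adjacent match against 25.9%. Split by region, the 7-base adjacent matches stood at 3 of 174 coding sites (1.72% against 8.59% of all coding sites), 7 of 61 3' UTR sites (11.5% against 18.4%) and 2 of 47 intronic sites (4.26% against 4.07%). All 13 began 1 base downstream of the crosslinked T, as did 92.0% of such matches over the table. Over sites crosslinked in every library the 7-base adjacent share was 14.5% against 23.03%, and in 3' UTRs it was 7 of 17 (41.2%) against 26.5%. Sites of a gene are not independent of each other, and 71 member sites lay within 30 nt of another site of the same gene.

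**Figure D2:**
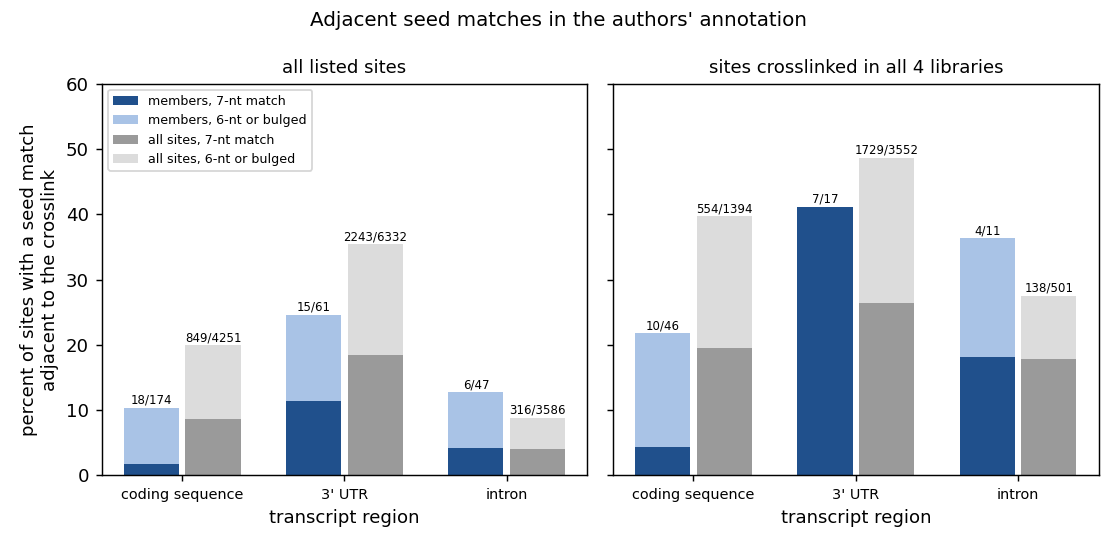
Percent of sites (vertical axis) whose seed match lies adjacent to the crosslink in the authors' annotation, by transcript region, for member genes (blue) and all sites (grey); dark bars are 7-base matches, light bars 6-base or bulged ones, and each bar is labelled with the sites with an adjacent match over all sites counted. At coding sites the members stand at 18 of 174 against 849 of 4251; at the right, over sites crosslinked in all 4 libraries, all 7 adjacent 3' UTR matches of the members are 7-base matches.

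The remaining 10 of the 13 sites with a 7-base adjacent match are printed here because they have the longest annotated match beside the crosslink; this set was chosen after its values were seen. Of these, 5 lay in initiation factor genes other than the pseudogene EIF4A2P1, which the name rule counts with them.

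EIF4A2 3' UTR, chr3:186789850-186789878, plus strand: tgtcttaatgaagtTTGAATGTtaaataa
RPL28 3' UTR, chr19:55390154-55390182, plus strand: atgaatggtgcataTTGAATGTataaagc
EIF4G2 3' UTR, chr11:10797324-10797352, minus strand: atattgcctgtattTCTACCTCtagtaat
EIF5B intron, chr2:99386088-99386116, plus strand: tatctgaataatacTGCACTTTatccatt
EIF3B intron, chr7:2368597-2368625, plus strand: tcggcttccttccaTCTACCTCgtctttg
EIF5A2 3' UTR, chr3:170890591-170890619, minus strand: gaacattttatttaTACTGTGAagacttt
RPS19 coding, chr19:41871338-41871366, plus strand: tcttttcccacaggTGGCAGCTgccaaca
RPL14 coding, chr3:40461629-40461657, plus strand: gatcgttttaaagtTATGAAGGcaaagaa
RPS3 3' UTR, chr11:75405608-75405636, plus strand: tttcagggtctcctTGGCAGCTgtattct
EIF4A2P1 pseudogene, chr18:12913685-12913713, plus strand: gtttgtgggactgaTGTGCAATaagtgtc

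The EIF4A2 and RPL28 3' UTR sites matched the miR-181 family, the second EIF4G2 site and the EIF3B site let-7, the EIF5B site the miR-17 family, EIF5A2 the miR-27 family, RPS19 and RPS3 miR-22-3p, and RPL14 miR-205-5p. They held 29 reads (EIF4A2), 23 (RPL28), 23 (EIF4G2), 20 (EIF5B), 16 (EIF3B), 14 (EIF5A2), 12 (RPS19), 10 (RPL14), 9 (RPS3) and 5 (EIF4A2P1) over the 4 libraries. The second EIF4G2 site lay 117 nt from the first, so the 3' UTR of this gene carried a miR-17 and a let-7 match, with 193 and 23 reads. The EIF4A2P1 window was identical to the EIF4A2 coding window printed above at 26 of 31 bases. The mature sequences of these families, from RefSeq with the seed in capitals, were as follows.

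hsa-miR-181a-5p: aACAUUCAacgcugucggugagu
hsa-let-7a-5p: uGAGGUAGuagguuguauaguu
hsa-miR-27a-3p: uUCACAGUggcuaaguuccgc
hsa-miR-22-3p: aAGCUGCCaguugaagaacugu
hsa-miR-205-5p: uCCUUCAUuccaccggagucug

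Counting each site under its best match of any kind, member sites matched 41 of the 42 seeds in the table. miR-205-5p had the most, with 16 sites in 12 genes (9.04% of member matches, 4.66% of all matches), of which 12 were coding and 3 adjacent to the crosslink. miR-103a-3p followed with 12 sites in 11 genes (6.78% against 7.33%), and 6 of them were adjacent. miR-183-5p had 11 sites in 10 genes (6.21% against 2.08%) but only 1 of these was adjacent. By reads at adjacent matches the order was different: the miR-17 family had 213 reads, nearly all at EIF4G2, and miR-103a-3p 204. Reads at bases that several seeds share were counted under the annotated seed only.

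At the sites of highest count the crosslink was carried by very different shares of the covering reads. A high share means that the listed T was the usual crosslink in the reads over it. At the EIF4G2 site 76.1%, 57.0%, 47.0% and 57.4% of covering reads carried the crosslink in control 1, control 2, treated 1 and treated 2. At the RPS28 site it was 71.4%, 68.4%, 66.7% and 52.9%, and at EEF1A1 site 2 only 10.5%, 16.2%, 11.4% and 14.9%. Over the 83 sites seen in every library, 22.5% to 29.6% of covering reads per library carried the crosslink (22.98% to 31.1% over all such sites), with 20.7% to 27.4% in coding sequence and 30.6% to 44.9% in 3' UTRs.

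**Figure D3:**
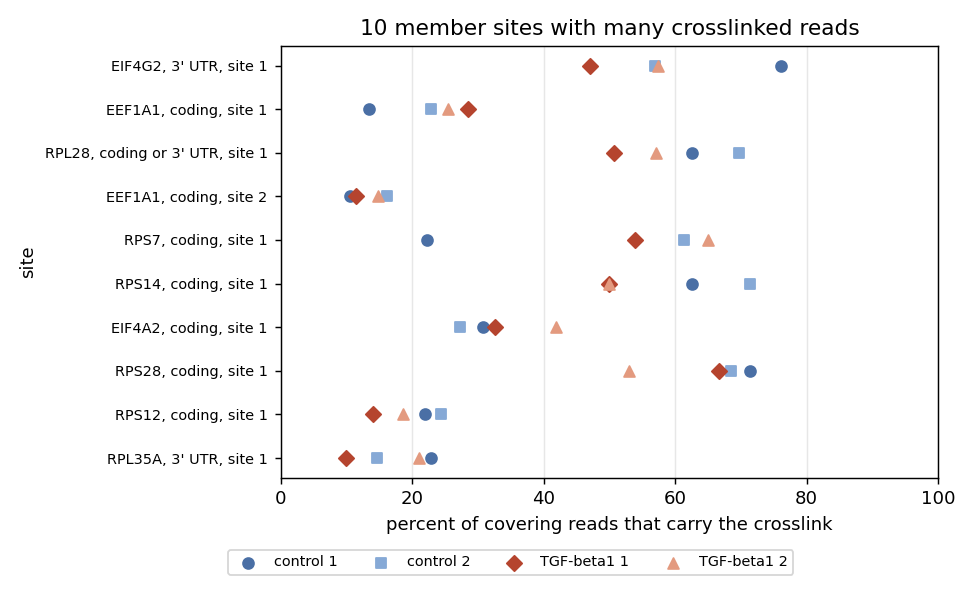
Percent of covering reads that carry the crosslink (horizontal axis), per library, at 10 of the 12 member sites with the most crosslinked reads. The RPS28 site lies between 52.9% and 71.4% in all 4 libraries, and EEF1A1 site 2 between 10.5% and 16.2%.

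Between treated and control libraries, 27 of the 87 member genes passed the filter on low counts and were tested, and 0 were called, against 39 of all 1266 tested genes (3.08%; 1.58% higher and 1.5% lower). The test was limma on log2 of scaled crosslinked RPM (reads scaled to library size) plus 1, with Benjamini-Hochberg adjustment over all genes. At an unadjusted p under 0.05, 2 member genes were higher (EEF1A1 and EEF1D) and 0 lower, against 6.24% and 7.58% of all genes; edgeR and DESeq2 on the recovered reads also called 0. By group, 0 of 5 tested large subunit genes, 0 of 9 small subunit genes, 0 of 11 initiation factor genes and 0 of 2 elongation factor genes were called. The other 60 member genes held 2 to 55 reads over the 4 libraries (median 12.5) and did not pass the filter on low counts.

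The median log2 difference of the 27 tested member genes was 0.32, against 0.02 over all genes tested, and 22 of 27 lay above 0 (51.1% of all genes); without the TMM scaling, which moves the median of all genes to -0.45, the members' median was -0.12 and 10 of 27 lay above 0 (20.0% of all genes). Both treated libraries lay above both controls for 10 of the 27 genes and below for 1, against 20.5% and 23.1% of all genes tested. The 27 passed a filter on low counts, so these counts do not describe all 87; without the filter the median was 0.21 over the 87 members against 0.09 over all genes, and 67.8% of members lay above 0 against 57.6%.

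**Figure D4:**
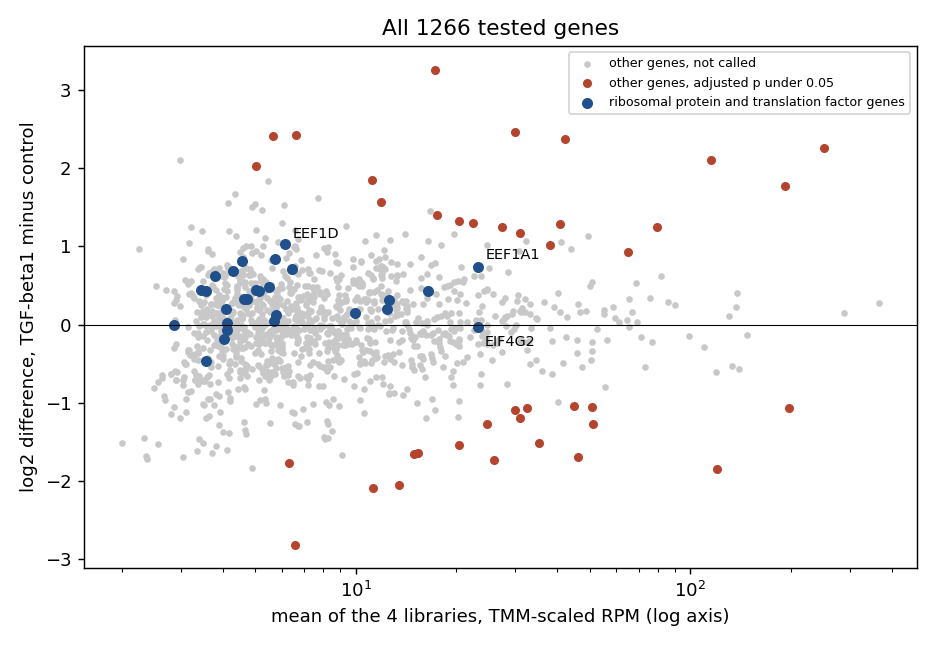
Difference between TGF-beta1 and control (log2, vertical axis) against the mean scaled RPM of the 4 libraries (log axis) for the 1266 tested genes; member genes are blue and other genes with a limma adjusted p under 0.05 red. The highest member gene lies at 1.03 (EEF1D), and 0 of the 27 are called.

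The values below are scaled RPM, which are not divided by transcript length, so they order the genes by reads recovered and not by binding per message. Libraries are given in the order control 1, control 2, treated 1, treated 2.

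Among the elongation factors, EEF1A1 had 15 sites, 9 of them coding, and values of 15.5, 18.8, 25.2 and 33.6. Both treated libraries lay above both controls (1.72-fold of the means; log2 difference 0.74 ± 0.27 SE, limma adjusted p = 0.221). Coding site 1, its most crosslinked, had 5.53 and 7.23 against 14.5 and 13.4 (2.19-fold; log2 difference 1.03 ± 0.36 SE, limma adjusted p = 0.0879 over 1059 sites). This was the smallest p of the 11 tested member sites, of which 0 were called, against 7.08% of all sites (3.68% higher and 3.4% lower), and edgeR and DESeq2 also called 0. At an unadjusted p under 0.05 it was the only member site, and 0 were lower, against 10.5% of all sites higher and 8.78% lower. The reads covering that base differed less, by a log2 difference of 0.21, and the share of them carrying the crosslink was 13.5% and 22.8% in the controls and 28.5% and 25.4% after treatment. Site 2, 21 nt away, had 4.42, 5.51, 6.16 and 7.999; the reads over the 2 sites can be the same. RefSeq names 50 pseudogenes after EEF1A1, and how reads that fit several places were assigned is not given in the sources used here. EEF1D had 4.98, 2.63, 7.94 and 9.11, with no overlap of the groups (2.24-fold; log2 difference 1.03 ± 0.41 SE, limma adjusted p = 0.269). EEF2, which moves the ribosome along the message, had 4 sites with 26 reads and was not tested, nor was EEF1A2, with 1 site.

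**Figure D5:**
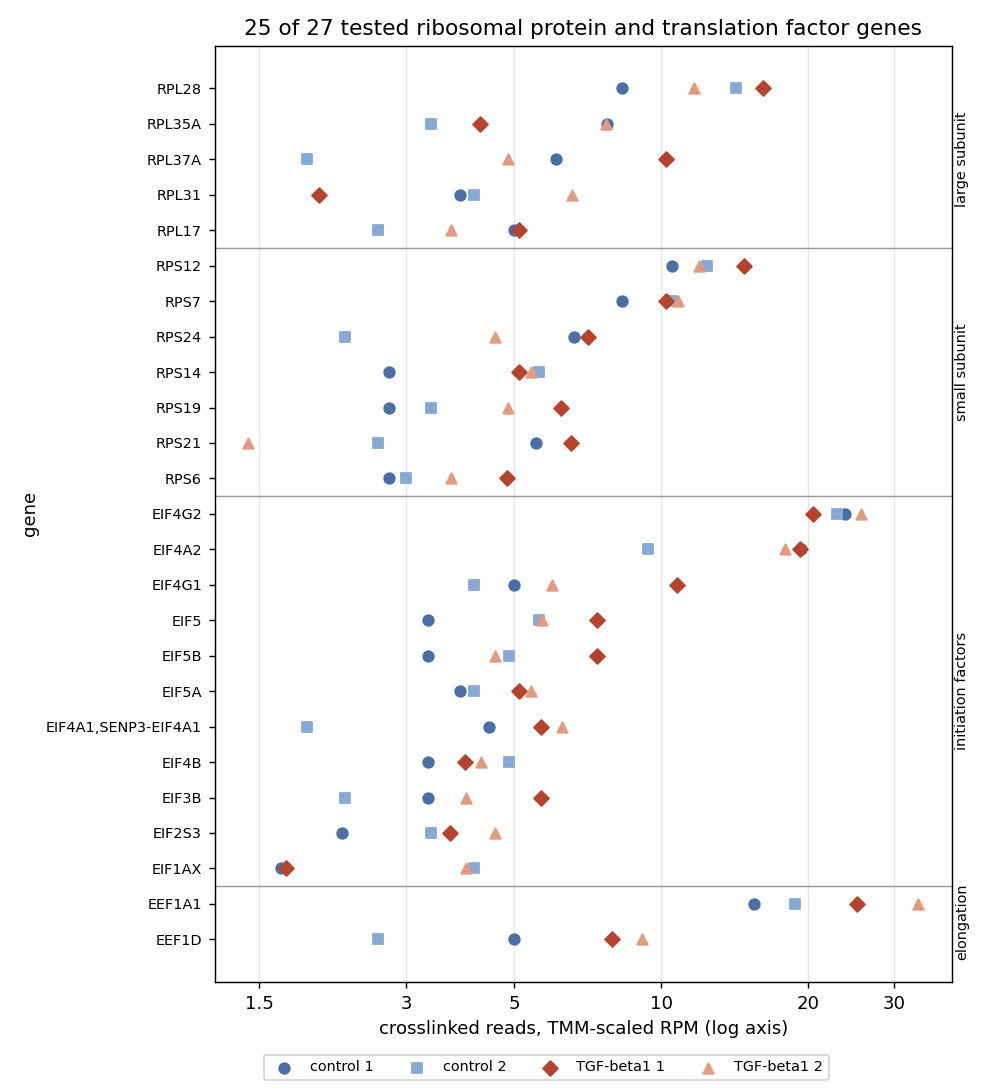
Scaled crosslinked RPM per library (log axis) for 25 of the 27 tested member genes, grouped by role and ordered by mean within each group. Blue points are controls and red or orange points treated libraries; EEF1A1 and EEF1D are among the 10 genes with both treated points to the right of both controls.

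Among the initiation factors, EIF4G2, an eIF4G relative that works without the cap-binding protein, had 23.8, 22.9, 20.4 and 25.6, and the groups overlapped (log2 difference -0.03 ± 0.25 SE). Its first 3' UTR site carried 72.6% of its reads, with 19.4, 16.9, 14.5 and 17.7. EIF4A2, an RNA helicase of the cap-binding complex eIF4F, had the most sites of any member, 16, with 7 in its 3' UTR, and values of 19.4, 9.38, 19.3 and 17.9; control 2 lay below the other libraries. EIF4G1, the scaffold of eIF4F, had 13 sites, 12 of them coding, and 4.98, 4.13, 10.8 and 5.98, with no overlap (log2 difference 0.71 ± 0.41 SE, limma adjusted p = 0.504). Its covering reads, tested in place of crosslinked reads, passed the threshold (log2 difference 2.15, limma adjusted p = 0.0494), and it was the only member gene of the 64 so tested that did, against 1.07% of all 2326 genes.

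The helicase gene EIF4A1, listed with the readthrough gene SENP3-EIF4A1, had 8 sites and 4.43, 1.88, 5.67 and 6.26, with both treated libraries above both controls (limma adjusted p = 0.488). EIF4B, which stimulates that helicase, had 8 sites and 3.32, 4.88, 3.97 and 4.27. None of the 5 tested genes of the list of eIF4F and its inhibitors was called (median log2 difference 0.43).

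The list of factors for the initiator transfer RNA and start codon choice also took in EIF5A, EIF5A2 and EIF5B. It had 5 tested genes, EIF5A and EIF5B among them, with 0 called (median log2 difference 0.44). EIF5, which makes eIF2 hydrolyse its GTP, had 9 sites and 3.32, 5.63, 7.37 and 5.70. EIF5B, which joins the subunits, had 6 sites and 3.32, 4.88, 7.37 and 4.56. EIF5A, needed for translating polyproline stretches, had 7 sites and 3.87, 4.13, 5.10 and 5.41; both treated libraries lay above both controls (log2 difference 0.32 ± 0.40 SE, limma adjusted p = 0.780). EIF2S3, the gamma subunit of eIF2, had 8 sites and 2.21, 3.38, 3.69 and 4.56. EIF1AX, with a single 3' UTR site, had 1.66, 4.13, 1.70 and 3.99, so that replicates differed more than the groups (log2 difference -0.01). EIF1, which guards start codon choice, had 5 sites and 46 reads and was not tested. Of the eIF3 complex 7 of 14 genes had a site, and only EIF3B was tested, with 7 sites and 3.32, 2.25, 5.67 and 3.99 (log2 difference 0.62 ± 0.44 SE); EIF3A had 5 sites and 38 reads. Of the eIF2B subunits and eIF2 kinases, only the kinase genes EIF2AK1, EIF2AK2 and EIF2AK3 had a site, with summed values of 2.21 and 4.13 in the controls and 0.85 and 1.42 in the treated libraries, and none passed the filter.

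Among the large subunit genes, RPL28 had 8.30, 14.3, 16.2 and 11.7, and the groups overlapped; 69.5% of its reads came from the site printed above. RPL35A had 6 sites and 7.74, 3.38, 4.25 and 7.69, and its miR-196 site held 58.5% of the reads. RPL37A had 7 sites and 6.08, 1.88, 10.2 and 4.84, a range within each group as wide as that between them (log2 difference 0.84 ± 0.52 SE, limma adjusted p = 0.542). RPL31, with 4 sites and 64 RefSeq pseudogenes, had 3.87, 4.13, 1.98 and 6.55. RPL17 had 4.98, 2.63, 5.10 and 3.70, but both of its sites lay inside the small nucleolar RNA gene SNORD58B, as did the only RPL23A site inside SNORD42B; those 3 sites, annotated as 5' UTR, may hold reads of the small nucleolar RNA, which cannot be told apart from the host transcript here. RPL23 (9 sites), RPL34 and RPL24 (5 each) were not tested, with 55, 32 and 27 reads.

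Among the small subunit genes, RPS12 had 10.5, 12.4, 14.7 and 11.96 from 3 coding sites, and the groups overlapped. Its site printed above had 4.98, 3.44, 2.77 and 3.71, also with overlap. RPS7 had 8 sites, 7 coding, and 8.30, 10.5, 10.2 and 10.8. RPS14 from its 1 site had 2.77, 5.63, 5.10 and 5.41, and RPS24 from 10 sites 6.64, 2.25, 7.09 and 4.56. In these 3 genes the groups overlapped. RPS19, mutated in Diamond-Blackfan anaemia, had 7 sites and 2.77, 3.38, 6.24 and 4.84, with both treated libraries above both controls (log2 difference 0.68 ± 0.42 SE, limma adjusted p = 0.539). RPS6, the subunit phosphorylated by the S6 kinases, had 6 sites and 2.77, 3.001, 4.82 and 3.70, also without overlap (limma adjusted p = 0.726). RPS21 had 5.53, 2.63, 6.52 and 1.42, the widest spread between the treated libraries among the small subunit genes tested. RPS18 and RPS4X, with 5 sites each, held 25 and 23 reads and were not tested.

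Of 30 listed genes of translation outside the name rule, 20 had a site, 5 were tested and 0 were called. PABPC1, the poly(A)-binding protein, had more crosslinked reads than any member gene, with 60.8, 56.3, 45.6 and 39.6 (log2 difference -0.45, limma adjusted p = 0.402), and NACA, of the nascent chain complex, had 0.55, 3.001, 6.52 and 7.40 (limma adjusted p = 0.148). The ribosomal proteins that the rule's digit leaves out, RPLP0, RPLP1 and RPSA, held 29, 17 and 37 reads. Of 25 mTOR and stress response genes 16 had a site, 5 were tested and 0 called. The 12 mitochondrial ribosomal protein genes with a site were all below the test's minimum. Their summed values were 16.04 to 20.6 in the controls and 9.11 to 15.02 after treatment. The control 2 sum leaned on 1 gene, MRPL19, which had 1.66, 8.25, 1.42 and 1.71, so the gap between the groups is not a trait of the list. The corresponding sums over the 87 member genes were 234 to 251 and 301 to 310.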

How the data were processed

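Argonaute PAR-CLIP was measured in 2 control and 2 TGF-beta1 libraries of HK2 cells. The authors deposited 1 table of 16230 crosslink sites with crosslinked reads and covering reads in RPM, per the file headers, and a list of the same positions whose score column is 1 throughout. Tools per the submitters' processing notes were bcl2fastq 2.20.0.422, STAR 2.7.1a and bedtools, with the build hg38, and the annotation per the header was GENCODE release 27. For the crosslink caller, its minimum counts and reads with several matches, the method is not given in the sources used here. Seed matches and transcript regions are the authors' own annotation. Another 4 columns of per-sample values were not used.

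RPM values were whole multiples of 1 read for 100% of values (tolerance 0.1 reads), which gave the total reads per library, printed with the results. No molecular identifiers are named, so reads need not be independent molecules. The planned test fitted the unit: crosslinked RPM were summed per gene symbol, scaled by TMM (edgeR), kept where filterByExpr passed at a minimum count of 10, and tested on log2(RPM + 1) with limma (trend, two-sided, Benjamini-Hochberg over all features, threshold 0.05); log2 differences therefore understate the change of low genes. Sites were tested likewise, with their own scaling. The count tests of edgeR and DESeq2 on recovered reads, other scalings, pseudocounts, filters, covering reads, subsets of sites and leaving out each library were alternatives. Versions were R 4.3.3, limma 3.58.1, edgeR 4.0.16 and DESeq2 1.42.0, and the fit was tested on simulated data.

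Named genes were the 15 members with most scaled reads, any called, the 5 with the smallest p in each direction and those with at least 5 sites; sequences were those of the 12 sites with most reads, at most 2 per gene. Some genes and sites that these rules take are not reported here; counts over members include them. The members and lists were chosen with earlier results of these data known. RefSeq (GRCh38.p14) gave microRNA sequences, pseudogene names and small nucleolar RNA positions.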

Additional observations from a re-analysis of the deposited data

How the results depend on the processing

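No member gene was called by limma, edgeR or DESeq2 under any gene alternative run but 1: covering reads called EIF4G1. The replicate numbers were not taken to pair the libraries: same-numbered deviations correlated at 0.13 over genes and 0.12 over sites, with only 2 pairs. With the replicate block, 117 of all sites were called in place of 75. Among them was 1 member site, EEF1A1 coding site 1 (limma adjusted p = 0.0371). All genes called numbered 39, against 4 without a filter, 3 without the trend, 25 from covering reads, 70 over 3' UTR sites, 15 over coding sites and 0 to 24 without each library in turn (0 without either control, 15 without treated 1). All sites called numbered 28 without TMM, 0 without a filter, 25 without the trend, 45 with DESeq2, 0 from covering reads and 3 to 110 without each library (110 without control 1, 33 without control 2, 3 without treated 1, 15 without treated 2). The cause of these moves was not tested. Over sites crosslinked in every library, chosen after seeing the data, member shares of reads were 0.97% (control) and 1.13% (treated), and 62.7% of member sites had a seed match, 28.9% adjacent and 14.5% adjacent over 7 bases. By covering reads the member shares were 61.8% and 62.8% coding and 20.2% and 16.5% in 3' UTRs; each site counted once gave 54.9% and 19.2%.

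Uncalled log2 differences changed sign as follows. Not all of them were near 0 in the planned test: EIF5B was at 0.44 and the RPS7 site at 0.69. Without TMM they were -0.0765 (EIF4A2), -0.41 (EIF4B), -0.12 (EIF5A), -0.0266 (EIF5B), -0.23 (RPL17), -0.20 (RPL28), -0.30 (RPL35A), -0.30 (RPS12), -0.13 (RPS14), -0.0085 (RPS24) and -0.34 (RPS7), and at sites -0.13 (EEF1A1 site 2), -0.27 (RPL35A), -0.13 (RPS14), -0.31 (RPL28) and -0.38 (EIF1AX). From covering reads they were 0.36 (EIF4G2), -0.11 (RPL17), 0.43 (RPL31) and -0.20 (RPS12), and at sites -0.12 (RPS7) and -0.64 (EIF1AX). Without a filter they were 0.0925 (EIF1AX), 0.11 (EIF4G2) and 0.0415 (RPL31). With edgeR they were -0.0242 (EIF4B), 0.0863 (RPL31) and 0.0271 (RPS21), and with DESeq2 -0.0094 (EIF4B) and 0.0906 (RPL31). EIF1AX was at 0.0074 with DESeq2 size factors, 0.0888 over 3' UTR sites, 0.0808 over sites in every library, 0.0142 without introns and 0.0023 without small nucleolar RNA sites. EIF4G2 was at 0.0037 over 3' UTR sites and 0.0027 without introns. Without each library in turn the ranges were -0.43 to 0.49 (EIF1AX), -0.0611 to 0.97 (EIF4A2), -0.15 to 0.23 (EIF4B), -0.11 to 0.18 (EIF4G2), -0.16 to 0.61 (RPL17), -0.68 to 0.65 (RPL31), -0.37 to 0.67 (RPL35A), -0.0299 to 0.71 (RPS14), -1.01 to 0.69 (RPS21) and -0.19 to 1.09 (RPS24), and at sites -0.37 to 0.87 (RPL35A), -0.0458 to 0.69 (RPL28), -0.29 to 0.62 (EIF1AX) and -0.31 to 0.0981 (EIF4G2).

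With 2 libraries a group and a median of 6 reads at a member site, the filter on low counts left 27 of 87 genes and 11 of 317 sites. Without it 0 of the 87 genes and 0 of the 317 sites were called by limma. At an unadjusted p under 0.05, 7 member genes and 44 member sites were higher, against 314 of all 4361 genes and 2018 of all 16230 sites. Lower at that threshold were 0 member genes and 2 member sites, against 120 of all genes and 299 of all sites.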
